A study of Homo sapiens with 8 samples.

Results

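The BBSome and the ciliary transition zone were followed here with earlier results of these data already known. The 32 genes were chosen by name from the textbook composition of these structures. They comprise 8 subunits of the BBSome (BBS1, BBS2, BBS4, BBS5, BBS7, TTC8, BBS9 and BBIP1), the GTPase ARL6 that recruits it, and 3 chaperonin-like proteins that help to assemble it (MKKS, BBS10 and BBS12). The other members form the transition zone and the compartment next to it: 2 genes of the NPHP module (NPHP4 and RPGRIP1L), 2 of the CEP290 module (CEP290 and IQCB1), 13 of the MKS module and 3 of the inversin compartment (INVS, NEK8 and ANKS6). All 32 were present among the 58302 genes of the count table, and 30 had enough counts to be tested. Undifferentiated human pluripotent stem cells were sequenced in 8 bulk RNA libraries. The induced pluripotent line WTC11 supplied 2 control libraries and 3 of the genotype KIF3B-/-, while the embryonic line WA09 supplied 2 controls and 1 library of the genotype KIF3A-/-. All cells were untreated and were kept without feeder cells in mTeSR1 medium, and each library came from 100 to 1000 cells. Libraries are numbered within their group. The labels tie WTC11 control 1 and KIF3B knockouts 1 and 2 to KIF3B guide RNA 1. WTC11 control 2 and KIF3B knockout 3 are tied to KIF3B guide RNA 2. All libraries of WA09 are tied to KIF3A guide RNA 1, and every control is labelled isogenic. The series speaks of several clones, but separate clones or cultures are not given for single libraries. The p-values then reflect only how far these libraries spread, and part of that can be technical. The KIF3A knockout was 1 library, and in this design the gene knocked out and the cell line cannot be told apart.

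A primary cilium is a microtubule rod inside its own stretch of membrane, and kinesin-2, whose motor subunits are KIF3A and KIF3B, carries material from its base to its tip. The transition zone lies at that base, where Y-shaped links join microtubules to membrane and form a gate that decides which proteins enter and leave. The BBSome is a coat of several subunits that rides on the transport trains and takes membrane receptors out through that gate. Mutations in BBSome genes cause Bardet-Biedl syndrome, and those in transition zone genes cause Meckel syndrome, Joubert syndrome and nephronophthisis. Pluripotent stem cells can carry primary cilia.

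Library totals ran from 2161890 to 2875163 counts, so a count of 0 allows up to 3 counts, or 1.04 to 1.39 CPM (counts scaled to a common library total), by counting error alone. KIF3B RNA was not lower in the libraries labelled KIF3B-/- (49.3, 37.4 and 38.4 CPM) than in their controls (32.5 and 26.7 CPM), and KIF3A RNA was 33.1 CPM in the library labelled KIF3A-/- against 68.3 and 61.8 CPM. Gene-level counts do not show whether a transcript carries a disrupting mutation, so the KIF3B level does not check that label. All 10 pluripotency markers were expressed in every library. They summed to 4161 and 4844 CPM in the WTC11 controls and 4812 to 5378 CPM in the KIF3B knockouts. In WA09 the sums were 3728 and 4298 CPM in controls and 4249 CPM with KIF3A knocked out. None was called by edgeR in the KIF3B comparison. At an unadjusted p under 0.05 SALL4 and PODXL were higher and POU5F1 lower, beside 16.6% of all genes tested. Of 10 multiciliated cell markers, 9 stayed under 10 CPM in every library, and the 7 primitive streak and endoderm markers did so too. Of 6 neuroectoderm markers, 5 stayed under 10 CPM throughout. The list, mostly NES, summed to 79.8 and 92.1 CPM in the WTC11 controls and 82.3 to 142 CPM with KIF3B knocked out. WA09 libraries gave 63.6 to 80.7 CPM. The fibroblast and mesenchymal markers summed to 144 and 166 CPM in the WTC11 controls and 210 to 446 CPM in the KIF3B knockouts. This was mostly COL1A1 and COL1A2. With KIF3A knocked out the sum was 180 CPM, beside 196 and 202 CPM for WA09 controls. The 446 CPM was KIF3B knockout 2, with COL1A1 at 124 CPM and COL1A2 at 312 CPM. Knockouts 1 and 3 had 37 and 34.1 CPM of COL1A1, and 165 and 159 CPM of COL1A2. LUM and DCN were at 0 in every library and 4 of the 7 genes stayed under 10 CPM, and the part of these markers in the WTC11 results below was not tested. Changes in the share of cells with a cilium and in RNA per cell cannot be told apart in such bulk samples.

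Most members were detectable but modest. Levels per length, in CPM per kilobase of the longest annotated transcript, averaged over the 8 libraries from 0.0761 for BBS5 to 58.9 for TMEM216, a small membrane protein of the transition zone. TCTN3, a tectonic protein, followed at 53.4 CPM per kilobase, then BBS4, a BBSome subunit, at 49.8, B9D1, a B9-domain protein of the gate, at 38.9, and IQCB1, which partners with CEP290, at 38.6. The lowest tested members were TCTN2, NPHP4, TMEM231 and CEP290, at 2.16, 2.70, 2.48 and 2.2 CPM per kilobase. In this order, neighbours lay within their spread over the libraries for 27 of 31 pairs. The exceptions were the steps from BBS4 to B9D1, from IQCB1 to MKKS, from ANKS6 to BBS10 and from TCTN2 to BBS1. On this scale the core subunits of 1 complex differed widely. BBS2 and TTC8 averaged 6.35 and 6.21 CPM per kilobase, against 49.8 for BBS4 and 23.1 for BBS9. The longest transcript need not be the one expressed. Mean counts, not divided by length, were 95.2, 81.5, 305 and 226 in the same order, a smaller gap.

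**Figure D1:**
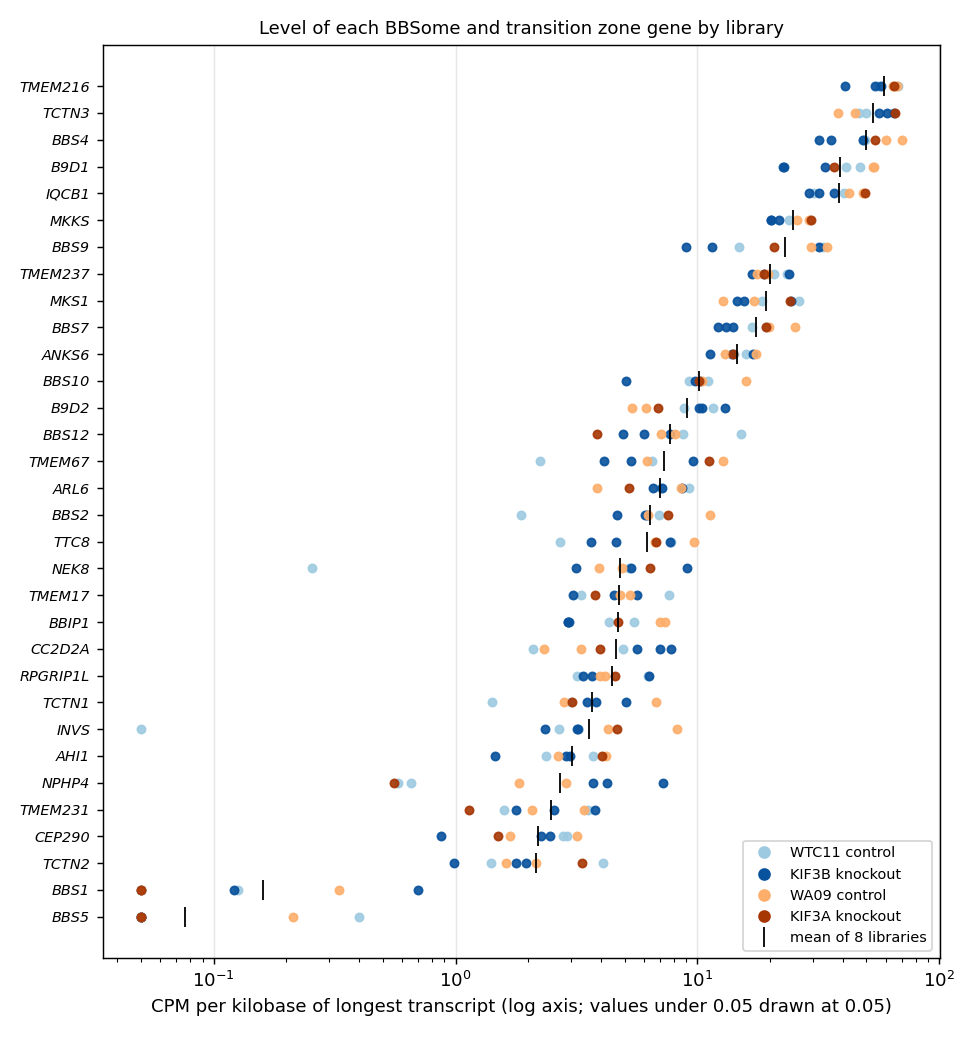
Level of each of the 32 members in CPM per kilobase of its longest transcript on a log axis, with 1 point per library coloured by group and a tick at the mean of 8 libraries. TMEM216, TCTN3 and BBS4 lead at 58.9, 53.4 and 49.8, BBS1 and BBS5 lie far below the others at 0.16 and 0.0761, and WTC11 control 1 lies apart for INVS and NEK8.

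BBS1 and BBS5, both core BBSome subunits, were the members that could not be tested. BBS1 had 0 and 1 counts in the WTC11 controls, 0, 1 and 7 in the KIF3B knockouts, 3 and 0 in the WA09 controls and 0 in the KIF3A knockout. BBS5 had 3 and 0 counts in the WTC11 controls, 0 and 2 in the WA09 controls and 0 in every knockout. Apart from the 7 counts of BBS1 in KIF3B knockout 3, these lie at or under the 3 counts that a count of 0 allows. Neither gene passed the filter on low counts, so no fold change is given. Both genes share exons with another annotated protein-coding gene on the same strand, over 53.9% of the exon bases of BBS1 (with AP002748.4) and 21.9% of those of BBS5 (with AC093899.2). How the counter treated reads in shared exons is not given in the sources used here, so these 2 low counts do not show that the genes are silent. Some exon overlap was annotated for 16 members, but it exceeded 20% for only 4: these 2, BBIP1 (20.2%) and TMEM237 (23.3%, with a processed pseudogene).

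The promoters of the members were searched for the X-box, the paired inverted motif read by RFX factors, the transcription factors best known for ciliary genes. The search covered the 250 bases before and 50 bases after each RefSeq start site (GRCh38.p14), both strands, with a gap of 0 to 3 bases between the half-sites. The table held 29 of the 32 members, without TMEM67, BBS9 and TCTN2, and 8 of them (27.6%) held a match, against 781 of 27305 genes in the table (2.86%) and 820 of 35116 promoters (2.34%). The matches are shown because they are a feature that 8 members share and that was not used to choose them. Each window is 30 bases on the strand of the gene, with the X-box in capitals:
AHI1: acgcatcgGTCGCCATGGGAACggcggcgt
ARL6: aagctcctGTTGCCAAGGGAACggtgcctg
B9D1: ctgggactGTTACCTTGGCTACtggctccc
B9D2: agcctgctGTTGCCCCAGCAACaaccacgg
BBIP1, before the start: ggcttcctGTTTCCAGGGTGACgtagattt
BBIP1, after the start: tctcaccGTTACCCGGGGCAACagctgagc
TCTN1: ctgtcgcgGTTGCCGGGCAACgcgctgtcc
TCTN3: cactgacgGTTGCCAGGCAACggaggcacg
TMEM17: gccgcccgGTTGCCGTGGGAACcacggagc
The window of AHI1, an MKS module protein, lies at chr6:135497787-135497816 on the minus strand, and its match starts 68 bases before the transcript. That of ARL6 lies at chr3:97764726-97764755 on the plus strand, 24 bases before it. B9D1 and B9D2, partner B9-domain proteins, have theirs at chr17:19378085-19378114 and chr19:41364136-41364165, both on the minus strand, starting 193 bases before the transcript and 8 bases before it, so that the B9D2 match spans the start. BBIP1, the smallest BBSome subunit, had a pair of matches on the minus strand, at chr10:110919186-110919215, 27 bases before the start, and at chr10:110919142-110919171, from the base numbered 17 of the transcript. For the tectonic genes, the TCTN1 match begins on the first transcribed base (chr12:110614121-110614150, plus strand), whereas that of TCTN3 begins 215 bases before it (chr10:95694121-95694150, minus strand). TMEM17, a membrane protein of the MKS module, has its window at chr2:62506189-62506218 on the minus strand, 15 bases before the start. A match is a description of the sequence, and no factor binding was measured. Members with an X-box did not share a direction in the KIF3B comparison: 5 of these 8 were lower and 3 were higher, with TCTN1, TCTN3 and B9D2 on the higher side.

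The first comparison asked how these genes differ when KIF3B is lost in WTC11 cells. No member was called at an adjusted p under 0.05 by edgeR's quasi-likelihood test, and none by limma voom, in a comparison where edgeR called 0% of the 14216 genes tested. At an unadjusted p under 0.05 there were 5 of 30 members, 16.7%, which is close to the 16.6% of all genes tested. BBS12, MKKS and B9D1 were lower and NPHP4 and TCTN3 higher. DESeq2, which called 2.15% of genes, and edgeR with no filter on low counts, which called 2.56%, each called 1 member, NPHP4. Of the 30 tested members, 19 were lower and 11 higher, with a median log2 fold change of -0.14, beside 0.03 over all genes tested, of which 48.2% were lower. The median rested on the controls: it was 0.05 without WTC11 control 1 and -0.31 without WTC11 control 2. In all genes the KIF3B fold change followed transcript length (Spearman rho 0.354 across 14199 genes, which share libraries and are not independent), and among the 30 members rho was 0.149. With that trend removed the members' median was -0.28, against -0.02 for all genes.

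All 3 knockout libraries lay below both controls for 7 members (23.3%), beside 18% of genes tested: BBS4, BBS7, BBIP1, BBS12, MKKS, CEP290 and B9D1. They lay above both controls for 4 (13.3%), beside 16.5% of genes: NPHP4, CC2D2A, TCTN1 and TCTN3. The lower set held 3 BBSome subunits, 2 of the 3 chaperonin-like genes and the transition zone genes CEP290 and B9D1. The higher set held transition zone genes alone, but these are also most of the tested members, with 13 of 30 in the MKS module. What these small sets hold was not tested against that share. By this count of libraries that do not overlap, the members' shares did not lie far from those of all genes in either direction. The signs and medians given above are a separate measure.

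The BBSome subunits were mostly lower in the KIF3B knockouts, but none passed the test. Of the 6 tested, 4 were lower and the median log2 fold change was -0.40, beside 0.03 over all genes. With the length trend removed, TTC8 turned from 0.02 to -0.25 and BBS2 moved from 0.36 to 0.01. BBS4 (ENSG00000140463, chr15:72686179-72738476), the subunit that links the complex to centriolar satellites, was the most abundant per length. It stood at 121 and 123 CPM in the WTC11 controls and at 121, 79.5 and 88.8 CPM in the KIF3B knockouts. KIF3B knockout 1 lay just under the lower control, and the log2 fold change of BBS4 was -0.34 ± 0.19 (SE, edgeR adjusted p = 0.408). BBS7, one of the subunits built like a propeller, was 72.0 and 63.0 CPM in controls and 49.3, 45.6 and 52.5 CPM in knockouts (log2 fold change -0.46 ± 0.21, edgeR adjusted p = 0.321).

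BBIP1 (ENSG00000214413, chr10:110898730-110919274) is the subunit that has also been tied to microtubule stability. It stood at 25.7 and 20.4 CPM in the WTC11 controls and at 13.7, 13.9 and 13.7 CPM in the KIF3B knockouts. The 3 knockouts were nearly equal and below both controls, with a log2 fold change of -0.74 ± 0.33 (SE, edgeR adjusted p = 0.301). The other subunits were erratic between replicates. BBS2, a scaffold of the complex, was 42.2 and 11.3 CPM in the 2 controls, and BBS9 was 36.3, 128 and 46.4 CPM in the 3 knockouts. Such gaps were not limited to these genes: with 1 CPM added to each value, the highest and lowest WTC11 control differed by over 2-fold for 10 of 30 members (33.3%), beside 19.9% of all genes tested. On the same scale the share was 16.7% of members and 26% of genes over the KIF3B knockouts, and 10% and 14.2% in the WA09 controls. ARL6, the GTPase that brings the BBSome to membrane, was 39.0 and 29.9 CPM in controls and 30.2, 27.8 and 36.7 CPM in knockouts, which overlap.

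Summed over the 8 subunits, the BBSome made up 337 and 392 CPM in the WTC11 controls and 273, 323 and 282 CPM in the KIF3B knockouts. The groups did not overlap, though the gap between them was smaller than the range within either. For single genes, every KIF3B knockout lay below both controls in 18% of those tested. In WA09 the sum was 503 and 509 CPM in the controls and 394 CPM in the KIF3A knockout. These WA09 controls were the highest libraries of the series, and BBS4 and BBS9 were the largest parts of their BBSome sum.

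**Figure D2:**
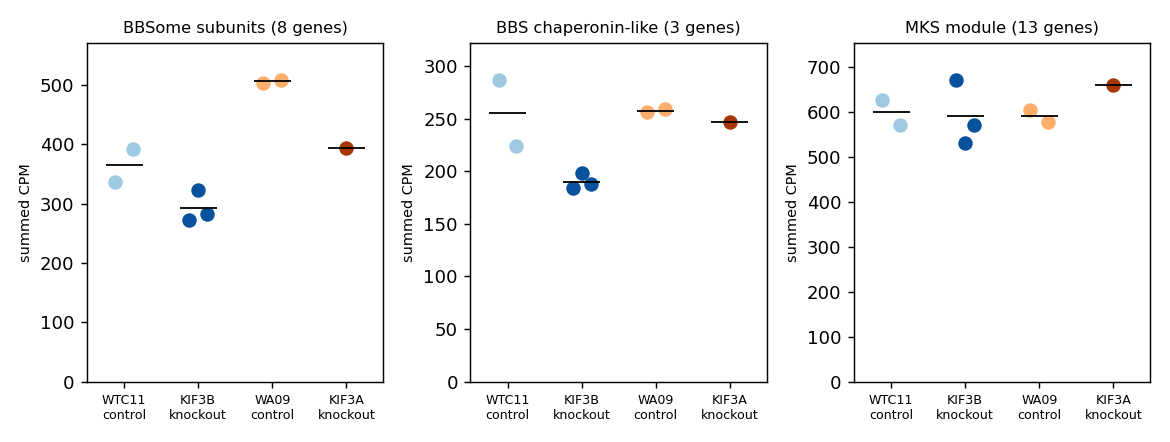
Summed CPM of the BBSome subunits, the chaperonin-like genes and the MKS module by group, with 1 point per library, a line at the group mean and axes that start at 0. The KIF3B knockouts lie below both WTC11 controls for the BBSome (273 to 323 against 337 and 392 CPM) and the chaperonin-like genes (184 to 198 against 224 and 287 CPM). For the MKS module the groups overlap. MKKS is most of the chaperonin-like sum, at 196 and 161 CPM in the WTC11 controls. BBS9, a large part of the BBSome sum, varies from 36.3 to 128 CPM among the KIF3B knockouts. For single genes, every KIF3B knockout lies below both controls in 18% of those tested.

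The chaperonin-like genes, which resemble subunits of the cytosolic folding machine and build the core of the BBSome, were lower in all 3 cases. MKKS (ENSG00000125863, chr20:10401009-10434222) was the most abundant of them, at 196 and 161 CPM in the WTC11 controls and 146, 136 and 135 CPM in the KIF3B knockouts. The groups did not overlap, and the log2 fold change was -0.36 ± 0.13 (SE, edgeR adjusted p = 0.232). BBS12 (ENSG00000181004, chr4:122732702-122744943) was 51.8 and 29.9 CPM in controls and 20.6, 26.5 and 16.9 CPM in knockouts. Its controls differed from each other more than control 2 did from the knockouts, with a log2 fold change of -0.94 ± 0.36 (SE, edgeR adjusted p = 0.243). BBS10 was 39.9 and 33.1 CPM in controls and 18.3, 35.2 and 36.7 CPM in knockouts, where the groups overlap. Without WTC11 control 1, the log2 fold changes of MKKS and BBS12 were -0.21 and -0.49, so that library set much of their size. With the length trend removed, MKKS stood at -0.69.

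NPHP4 (nephrocystin-4, ENSG00000131697, chr1:5862811-5992473), a scaffold of the NPHP module that anchors the gate, gave the largest contrast among the members. It had 7 and 8 counts in the WTC11 controls and 54, 54 and 111 in the KIF3B knockouts. In CPM these are 3.21 and 3.63 in the controls and 20.6, 23.5 and 39.9 in the knockouts. Every knockout was more than 5-fold above either control, and the log2 fold change was 3.02 ± 0.55 (SE). This missed the threshold in edgeR (adjusted p = 0.171, the smallest among the members), where NPHP4 ranked 22 of all genes by p. It passed with DESeq2 (adjusted p = 0.00277) and with edgeR on unfiltered genes (adjusted p = 0.000712). On the scale of log2(CPM + 1), which understates low genes, the knockouts exceeded the control by 2.45 within guide 1 and by 3.14 within guide 2. RPGRIP1L, its partner in the same module and the more abundant per length, was 48.1 and 24.5 CPM in controls and 26.0, 48.7 and 28.4 CPM in knockouts. The 2 controls span nearly the range of the knockouts, so the NPHP module did not move as a unit.

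In the CEP290 module, which bridges microtubules and membrane, both genes were lower by small amounts. IQCB1 was 105 and 78.4 CPM in the WTC11 controls and 95.1, 75.1 and 82.6 CPM in the KIF3B knockouts, and these overlap. CEP290 was 22.9 and 22.2 CPM in controls and 19.5, 6.95 and 18.0 CPM in knockouts. KIF3B knockout 2 was the low one, and the log2 fold change of CEP290 was -0.60 ± 0.50 (SE, edgeR adjusted p = 0.589), or -0.94 with the length trend removed.

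The MKS module, a membrane-bound set whose loss lets proteins leak into and out of the cilium, was divided: 7 of 13 genes were lower and 6 higher, with a median log2 fold change of -0.15. One of the higher genes, TMEM231, turned from 0.08 to -0.17 with the length trend removed. B9D1 (ENSG00000108641, chr17:19337554-19378193) was 55.9 and 63.4 CPM in the WTC11 controls and 45.8, 30.8 and 30.5 CPM in the KIF3B knockouts. The groups did not overlap, and the log2 fold change was -0.74 ± 0.26 (SE, edgeR adjusted p = 0.212). At 1353 bases B9D1 has one of the shortest transcripts of the members, and with the length trend removed its log2 fold change was -0.41. TCTN3 (ENSG00000119977, chr10:95663396-95694143) went the other way, at 136 and 128 CPM in controls and 167, 154 and 178 CPM in knockouts. The difference was small but even, with a log2 fold change of 0.33 ± 0.14 (SE, edgeR adjusted p = 0.279).

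CC2D2A (ENSG00000048342, chr4:15469865-15601557), a C2-domain protein needed to build the gate, was 11 and 25.8 CPM in the WTC11 controls and 40.9, 36.9 and 29.5 CPM in the KIF3B knockouts. All knockouts were higher, but the controls were far from each other, and the log2 fold change was 0.95 ± 0.43 (SE, edgeR adjusted p = 0.301). TMEM216 (chr11:61391687-61398863), the most abundant member per length, was 132 and 109 CPM in controls and 112, 79.9 and 106 CPM in knockouts. KIF3B knockout 1 lay between the controls of TMEM216, so its groups overlap. The remaining MKS module genes had log2 fold changes in the KIF3B comparison from -0.79 (TCTN2) to 0.89 (TCTN1), each with an unadjusted p above 0.05.

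In the inversin compartment, a zone beyond the gate built on the scaffold INVS and the kinase NEK8, 1 library set the values. INVS had 0 counts in WTC11 control 1 and 22 in control 2, and in CPM it was 0 and 9.97 in these controls and 11.8, 8.69 and 11.9 in the KIF3B knockouts. NEK8 was 0.917 and 18.6 CPM in controls and 19.1, 11.3 and 32.3 CPM in knockouts. For both genes WTC11 control 1 was the lowest library of the series and control 2 lay among the knockouts. Their log2 fold changes, 1.11 ± 0.95 and 1.10 ± 0.84 (SE), did not pass the test (edgeR adjusted p = 0.599 and 0.551). ANKS6, which joins NEK8 to inversin and was the most abundant of the 3 per length, was 114 and 102 CPM in controls and 80.6, 122 and 100 CPM in knockouts, which overlap.

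**Figure D3:**
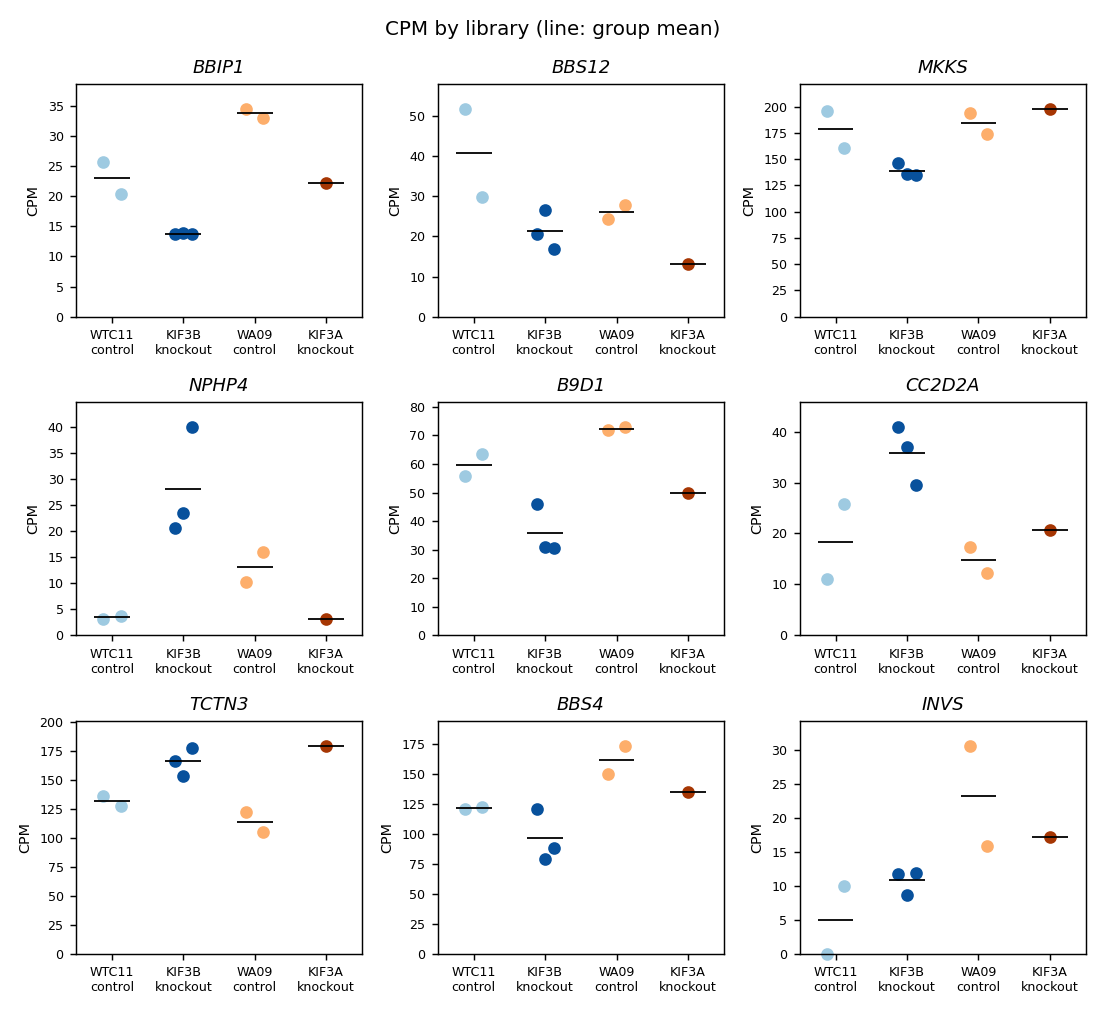
CPM of 9 members in each library by group, with a line at the group mean and axes that start at 0; the 7 genes with an unadjusted p under 0.05 in some comparison are joined by BBS4 and INVS. NPHP4 is high in the 3 KIF3B knockouts (20.6 to 39.9) and low in the KIF3A knockout (3.09), TCTN3 is higher and B9D1 lower in all 4 knockouts than in all 4 controls, and INVS is at 0 in WTC11 control 1.

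The second comparison set the KIF3A knockout library beside the WA09 controls. No member was called by edgeR, limma voom or DESeq2, in a comparison where edgeR called 0% of genes. At an unadjusted p under 0.05 there were 2 of 30 members, NPHP4 and TCTN3, beside 3.71% of all genes tested. NPHP4 was 10.2 and 15.9 CPM in WA09 controls and 3.09 CPM with KIF3A knocked out. It was lower there (log2 fold change -2.06 ± 0.75, SE, edgeR adjusted p = 1), and the KIF3A library stood at the level of the WTC11 controls. TCTN3 was 123 and 105 CPM in WA09 controls and 180 CPM with KIF3A knocked out, with a log2 fold change of 0.65 ± 0.18 (SE, edgeR adjusted p = 1). Over the 30 tested members 18 were lower and 12 higher, and the median log2 fold change was -0.22, beside -0.02 over all genes. It was -0.05 without WA09 control 1 and -0.10 without WA09 control 2.

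By groups, the 6 tested BBSome subunits were all lower in the KIF3A knockout, with log2 fold changes from -0.62 to -0.21 and a median of -0.27, though each was within 1.5 SE of 0. BBS4 was 150 and 174 CPM in WA09 controls and 135 CPM with KIF3A knocked out, and BBIP1 was 34.5 and 32.9 CPM in controls and 22.1 CPM in the knockout. Of the chaperonin-like genes, BBS12 was 24.3 and 27.8 CPM in WA09 controls and 13.2 CPM with KIF3A knocked out, while MKKS, at 194 and 174 CPM in controls, was 198 CPM in the knockout. The difference of MKKS between the knockout effects was not called. The MKS module leaned the other way, with 8 of 13 genes higher and a median of 0.23. RPGRIP1L (30.6 and 32.2 CPM in controls, 35.3 in the knockout), IQCB1 (126 and 110, then 128), TMEM216 (126 and 131, then 127) and ANKS6 (125 and 92.9, then 101) stood close to their controls. ARL6, at 36.1 and 16.3 CPM in controls, was 22.1 CPM.

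The test of the difference between the knockout effects (KIF3A effect minus KIF3B effect) called no member and 0% of genes in edgeR. NPHP4 was the single member of 30 with an unadjusted p under 0.05, beside 9.3% of all genes. Its effects pointed in opposite directions, and their difference was -5.08 ± 0.94 on the log2 scale (SE, edgeR adjusted p = 0.494), rank 4 of all genes by p. The call was made by DESeq2 (adjusted p = 0.0356, with 0.12% of genes called) and by edgeR on unfiltered genes (adjusted p = 0.00476, with 0.606% called). The spread over the 8 libraries thus put NPHP4 high in the KIF3B knockouts, intermediate in the WA09 controls and low in the WTC11 controls and the KIF3A knockout, where 7 or 8 counts were seen in each library.

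**Figure D4:**
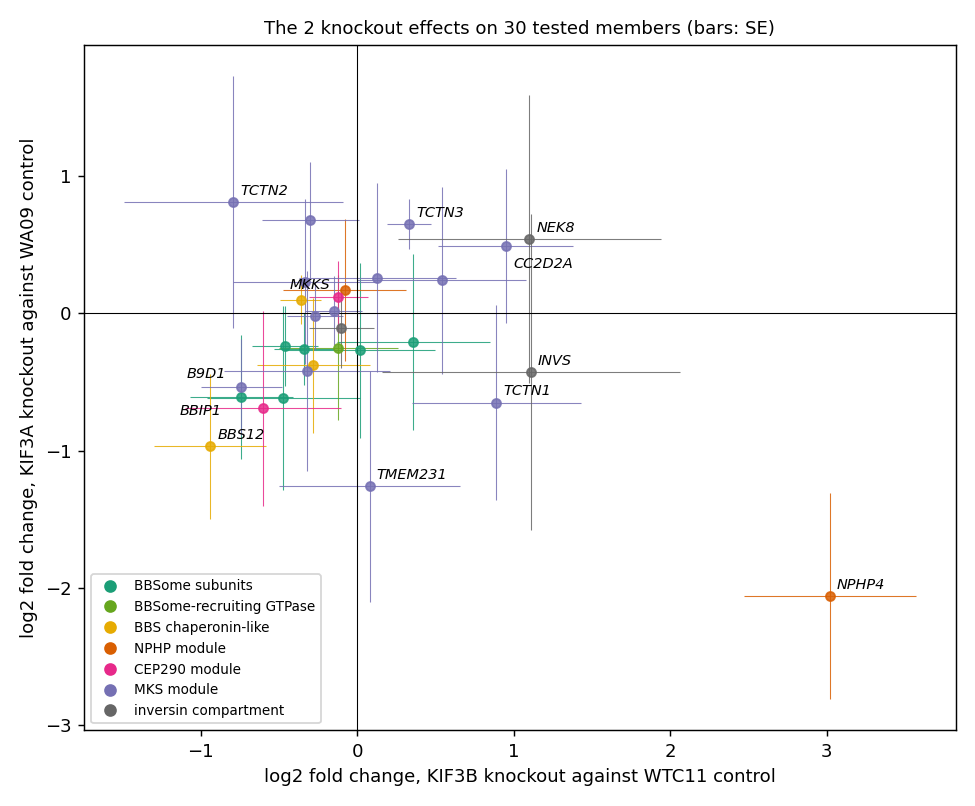
Log2 fold change of each of 30 tested members in the KIF3B comparison (horizontal axis) and the KIF3A comparison (vertical axis), coloured by functional group, with bars of 1 SE. Most points lie within 1 of 0 on both axes, NPHP4 lies alone at 3.02 and -2.06, and TCTN3 lies at 0.33 and 0.65.

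Across both lines, the 2 comparisons share no library, and 17 of 30 members (56.7%) had the same sign in both, beside 47.5% of all genes. Of these, 12 were lower in both (40%, beside 23.8% of genes) and 5 were higher in both. The lower ones included 4 BBSome subunits (BBS4, BBS7, BBS9 and BBIP1), ARL6, BBS10, BBS12, CEP290, TMEM216, TMEM17, B9D1 and ANKS6. The higher ones were TMEM67, B9D2, CC2D2A, TCTN3 and NEK8. With the length trend removed, TTC8 (-0.25 in the KIF3B and -0.24 in the KIF3A comparison) and TMEM231 (-0.17 and -1.20) were lower in both too. The share of all genes was not recomputed for that setting. A fit over all 8 libraries with cell line as a term called no member and 0% of the 13238 genes tested. At an unadjusted p under 0.05 it held 5 of 30 members (16.7%), beside 8.59% of genes.

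TCTN3 was the member with the smallest p in that fit, and all 4 knockout libraries (154 to 180 CPM) lay above all 4 controls (105 to 136 CPM), as they did for 2.31% of genes. Its log2 fold change was 0.45 ± 0.13 (SE, edgeR adjusted p = 0.53). B9D1 was the reverse case: the WA09 controls were 71.8 and 72.9 CPM and the KIF3A knockout 49.8 CPM, so that all 4 knockouts lay below all 4 controls, as for 1.97% of genes. The log2 fold change of B9D1 was -0.66 ± 0.21 (SE, edgeR adjusted p = 0.555). No other member separated all knockouts from all controls. BBS12 (-0.95 ± 0.30), BBIP1 (-0.69 ± 0.27) and CC2D2A (0.80 ± 0.34, log2 fold change ± SE) were the remaining 3, with adjusted p from 0.555 to 0.565, and CC2D2A was 17.3 and 12.2 CPM in WA09 controls and 20.7 CPM with KIF3A knocked out. Without WTC11 control 1 the CC2D2A value was 0.49. NPHP4, with effects of opposite sign, was not among them.

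The control libraries of the lines were compared to give the background between WTC11 and WA09. No member was called, in a comparison where edgeR called 0.0281% of genes. NPHP4 alone had an unadjusted p under 0.05 (1 of 30, beside 15% of genes), with a log2 difference of WTC11 from WA09 of -1.92 ± 0.57 (SE, edgeR adjusted p = 0.19). Controls of the 2 lines thus differed in NPHP4 by about the size of the KIF3A effect. All 6 tested BBSome subunits were lower in WTC11 than in WA09 controls, with a median log2 difference of -0.48, beside -0.01 over all genes, and all 3 inversin compartment genes were lower too, though ANKS6 only by -0.02, which turned to 0.02 with the length trend removed. These comparisons share the control libraries with the knockout comparisons above, so they are not separate evidence.

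Genes that work with the members were followed as lists. Of 12 other BBSome regulators tested in the KIF3B comparison, 7 were higher and 5 lower, none was called, and 2 (16.7%) had an unadjusted p under 0.05, a share close to the 16.6% of all genes tested. WDPCP, a planar polarity effector, was 35.8 and 32.2 CPM in the WTC11 controls and 53.9, 61.2 and 50.7 CPM in the KIF3B knockouts (log2 fold change 0.70 ± 0.26, SE, edgeR adjusted p = 0.23). PCM1, the scaffold of the centriolar satellites that hold BBS4, was 151 and 152 CPM in controls and 184, 197 and 207 CPM in knockouts (log2 fold change 0.37 ± 0.13, SE, edgeR adjusted p = 0.202). For both genes every knockout was above both controls. With the length trend removed, the log2 fold change was 0.41 for WDPCP and 0.02 for PCM1, so that hardly any difference was left in PCM1. NUDC, the most abundant of the list, was 281 and 287 CPM in controls and 262, 264 and 276 CPM in knockouts.

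Among the other transition zone and gate genes, 23 were tested in the KIF3B comparison, 15 were lower and 8 higher, and the median log2 fold change was -0.33, beside 0.03 over all genes, of which 48.2% were lower. None was called. In the KIF3A comparison 10 of the 23 were lower and 13 higher, with a median of 0.07. The 2 with an unadjusted p under 0.05 in the KIF3B comparison, a smaller share than the 16.6% of all genes tested, were both lower. PDE6D, which shuttles lipid-modified proteins into the cilium, was 68.3 and 89.7 CPM in the WTC11 controls and 55.0, 39.5 and 54.6 CPM in the KIF3B knockouts (log2 fold change -0.67 ± 0.23, SE, edgeR adjusted p = 0.212). With the length trend removed the PDE6D value was -0.28. TMEM80 was 28.4 and 22.2 CPM in controls and 16.4, 10.4 and 15.5 CPM in knockouts (log2 fold change -0.84 ± 0.35, SE, edgeR adjusted p = 0.277). ARL3, the GTPase that releases such cargo in the cilium and the most abundant of the list, was 114 and 91.1 CPM in controls and 85.2, 83.0 and 59.6 CPM in knockouts.

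Of the RFX and multiciliation regulators, 6 of 10 could be tested and none had an unadjusted p under 0.05 in the KIF3B comparison. RFX5, the most abundant and better known for immune genes, was 108 and 79.8 CPM in the WTC11 controls and 84.0, 70.4 and 102 CPM in the KIF3B knockouts. MCIDAS and GMNC, which start multiciliation, were at 0 counts in every library, which allows up to 1.39 CPM in the smallest of them.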

How the data were processed

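RNA of 8 libraries was measured, in 4 groups taken from the labels. The authors deposited a table of read counts by gene in whole numbers, without normalization. The submitters' processing notes name STAR and hg38. The counter, its strand setting and its handling of shared exons are not stated there, so reads of overlapping genes cannot be separated. Libraries were made by SMART-Seq amplification and Nextera XT from few cells, per the labels' protocols, which adds noise to genes with few counts. GENCODE release 29 supplied positions and lengths of transcripts.

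CPM used TMM-scaled totals over the tested genes. The table was fitted whole with edgeR 4.0.16 (robust quasi-likelihood F test, TMM, filterByExpr) in R 4.3.3: 1 fit with a mean per group and 4 contrasts (14216 genes), and 1 with knockout and cell line (13238 genes). P-values were adjusted by Benjamini-Hochberg over all genes tested, with a threshold of 0.05. The SE of an edgeR log2 fold change was back-calculated, as its absolute value divided by the square root of the F statistic. The lone KIF3A library was assumed to vary like the others. Alternatives were DESeq2 1.42.0, limma 3.58.1 voom, other normalization and filters, removal of the length trend, a guide block and leaving out each library. The members and lists were chosen with earlier results of these data known. Named were members with an unadjusted p under 0.05 where none was called and, per functional group, the most abundant per length. From each other pathway list up to 4 genes with an unadjusted p under 0.05 and the most abundant were named. Other genes named were chosen after their values were seen, as were all members beyond that rule.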

Additional observations from a re-analysis of the deposited data

Results flagged for a closer look

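The KIF3A effect minus the KIF3B effect on NPHP4, -5.08 ± 0.94 on the log2 scale (SE), was flagged because a test of the difference itself separated the knockout effects under some of the settings. In edgeR the adjusted p was 0.494, while DESeq2 gave 0.0356 and edgeR without a filter on low counts 0.00476. The contrast rests on 7 and 8 counts in the WTC11 controls, on 54, 54 and 111 in the KIF3B knockouts, on 26 and 43 in the WA09 controls and on 7 in the single KIF3A knockout library. Cell line and knocked-out gene cannot be told apart here.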

How the results depend on the processing

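The number of members called stayed at 0 in every setting run for the KIF3A, pooled and control comparisons. In the KIF3B comparison and in the difference between the knockout effects it was 1 with DESeq2 and 1 with no filter, NPHP4 each time. Otherwise it was 0. In the control comparison DESeq2 gave no adjusted p for several members, NPHP4 among them, so that setting could not call them. Directions were recomputed under every setting for the 7 members with an unadjusted p under 0.05 in the comparisons where they had one, and none reversed there. For all other values of members only removal of the length trend was examined: it turned the sign of 2 of 30 in the KIF3B comparison (TTC8 and TMEM231), of 10 in the difference between the effects, and of 2 each in the pooled (BBS2 and RPGRIP1L) and control (TMEM231 and ANKS6) comparisons, and of 0 in the KIF3A comparison. The log2 fold change of NPHP4 in the KIF3B comparison ran from 2.67 to 3.19 over 16 settings, with adjusted p from 0.000712 to 0.417, and the difference ran from -5.37 to -4.72 over 14 settings, with adjusted p from 0.00476 to 0.798. The cause of these shifts in call was not tested. The median of the members in the KIF3B comparison ran from -0.31 to 0.05, where leaving out a WTC11 control gave both ends, and in the difference of effects from -0.04 to 0.18. Deviations from the group mean in same-guide WTC11 pairs correlated at 0.107, -0.11 and -0.0155. With 2 controls the deviations of one mirror those of the other. These values are therefore tied to each other and cannot decide whether guide numbers pair the libraries. With guide as a replicate block, 0 members were called in the KIF3B comparison, the median was -0.16 and NPHP4 stood at 3.08 (edgeR adjusted p = 0.106). At 2161890 to 2875163 counts per library, members with few counts, BBS1 and BBS5 first, could not be compared.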
